A study of Mus musculus with 8 samples.

Results

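The genes of GABA handling followed across 8 cortex libraries were Gad1, Gad2, Slc32a1, Abat, Aldh5a1 and Slc6a11. All 6 were among the 54532 genes listed in the count table and among the 17195 with enough reads to be tested. They were chosen by their function and selected on measured values, since the normalized counts of Abat and Gad2 had been seen not to overlap between the genotypes. The genotype differences of the 6 genes are therefore given as a description, with no test.

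The libraries came from the cortex of 8-mo-old C57BL/6 mice, 4 of genotype PS19 (m677, m668, m665 and m659) and 4 of genotype Adrb1+/m;PS19 (m671, m661, m660 and m658). The latter are called mutant mice here. Every mouse carried the PS19 transgene, which is human tau with a mutation that causes frontotemporal dementia, driven by the mouse prion promoter. The mutant mice also had 1 knock-in copy of Adrb1-A187V, a changed beta1-adrenergic receptor that is linked to short sleep in people, and kept 1 normal copy. All were singly housed, and no library without the transgene is part of the comparison. Bulk tissue was sequenced, so more RNA of a gene per cell and more cells that make it cannot be told apart.

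GABA is the main inhibitory transmitter of the cortex. It is made from glutamate by the decarboxylases GAD67 and GAD65, the products of Gad1 and Gad2, and is loaded into synaptic vesicles by the transporter VGAT, the product of Slc32a1. After release it is taken up by plasma membrane transporters, of which GAT-3, the product of Slc6a11, sits mainly on astrocytes. In mitochondria GABA transaminase, encoded by Abat, turns GABA into succinic semialdehyde, and the dehydrogenase encoded by Aldh5a1 passes it on to the citric acid cycle. Local interneurons of the cortex use this pathway, and so do the projection neurons of the neighbouring striatum.

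Both decarboxylase genes lie on mouse chromosome 2 of build GRCm38, Gad1 at chr2:70553072-70602014 and Gad2 at chr2:22622205-22693874, both on the plus strand. The stretches upstream of their RefSeq starts are shown here because the 2 enzymes make the same product, while Gad2 was chosen for a difference between genotypes and Gad1 was not. Each window runs from base -250 to base -123 of the RefSeq (GRCm38.p6) start, on the plus strand, and overlaps no annotated exon. The Gad2 window is chr2:22622077-22622204, directly before the annotated gene. The Gad1 window is chr2:70561879-70562006 and lies inside the annotated gene, between exons, because the longest Gad1 annotation starts further upstream. Capitals mark TATAAA, read on the reverse strand.
Gad2: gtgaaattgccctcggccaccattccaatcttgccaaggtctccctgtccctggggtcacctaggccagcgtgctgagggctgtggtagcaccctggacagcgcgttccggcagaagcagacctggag
Gad1: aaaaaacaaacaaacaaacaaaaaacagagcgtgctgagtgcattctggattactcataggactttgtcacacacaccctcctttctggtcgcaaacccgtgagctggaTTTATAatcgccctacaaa

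The Gad2 window was 62.5% G and C and the Gad1 window 42.2%, against a median of 50.8% over the same window of 32851 promoters. The motifs searched, on both strands, were the cyclic AMP response element TGACGTCA and its core TGACG (each full element also holds the core), the GC box GGGCGG, the E-box CANNTG, the TATA box TATAAA and the homeodomain motif TAATTA. The Gad1 window held TATAAA once, as did 6.38% of all windows, and the Gad2 window held none of the motifs. CANNTG was found once each upstream of Aldh5a1, Slc6a11 and Slc32a1, and in 43.9% of all windows. TGACG was found once upstream of Aldh5a1, and in 7.0% of all windows. TGACGTCA, GGGCGG and TAATTA were in no member's window and in 0.259%, 13.8% and 2.75% of all windows. These are matches of letters, and 5 of the 6 genes were in the promoter table.

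Sequencing depth was similar in both genotypes, with 14653222 to 21223754 reads assigned to genes per PS19 mouse and 16865651 to 20802158 per mutant mouse. Genes that define 3 cell types were read in each library, with no level set at which cortical origin would fail. Slc17a7, the vesicular glutamate transporter of cortical excitatory neurons, lay between 1019 and 1259 counts-per-million (CPM) in PS19 mice and between 909.3 and 1076 CPM in mutant mice. Its log2 fold change, mutant vs. PS19, was -0.19 (SE 0.07, edgeR quasi-likelihood test, unadjusted p = 0.0217, adjusted p = 0.9996). Pvalb, of fast-spiking interneurons, ranged from 45.1 to 74.9 CPM and from 46.5 to 65.7 CPM. Aqp4, the water channel of astrocytes, ranged from 112.9 to 175.2 CPM and from 102.2 to 184.1 CPM. Ppp1r1b, which marks striatal projection neurons, was also present in every library, at 201.8 to 407.8 CPM in PS19 mice and 218.0 to 486.2 CPM in mutant mice.

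Levels were first compared between the 6 genes within each mouse. The choice of the genes did not compare one gene with another, but the values of Abat and Gad2 that it used enter here. Transcripts-per-million (TPM), which correct for gene length, were highest for Gad1, at 185.7 ± 3.49 in PS19 mice and 193.0 ± 7.93 in mutant mice (mean ± SD, n = 4 each, here and below). Gad2 followed at 152.1 ± 5.94 and 179.4 ± 18.7 TPM. Abat, the first step of breakdown, was at 142.1 ± 2.92 and 164.1 ± 4.64 TPM. The vesicular transporter Slc32a1 was at 132.4 ± 10.1 and 149.2 ± 11.5 TPM, and the astrocytic transporter Slc6a11 at 106.0 ± 9.13 and 116.3 ± 5.0 TPM. Aldh5a1, the second step of breakdown, was the lowest, at 55.4 ± 4.06 and 59.4 ± 3.39 TPM.

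All 5 neighbours in this order differed beyond their spread over the 8 mice, by an exact 2-sided sign-flip permutation test on log2 TPM with adjustment over the 5 pairs. The order was taken from the same 8 mice, both genotypes together, so the p-values are for steps found in these data. They are not for an order set beforehand, and the steps with Gad2 or Abat hold values that the choice of the genes used. Gad1 exceeded Gad2 by 0.20 ± 0.12 on the log2 scale (mean ± SD of the difference in level within a mouse) in 7 of 8 mice (adjusted exact p = 0.0195). The exception was m658, with 200.9 TPM of Gad1 and 207.0 TPM of Gad2. Gad2 exceeded Abat by 0.11 ± 0.08 in 8 of 8 mice (adjusted exact p = 0.0130). Abat exceeded Slc32a1 by 0.12 ± 0.09 in 7 of 8 mice (adjusted exact p = 0.0234), the exception being m668, with 145.9 and 147.1 TPM. Larger steps separated Slc32a1 from Slc6a11, at 0.34 ± 0.16, and Slc6a11 from Aldh5a1, at 0.95 ± 0.14, each in 8 of 8 mice (adjusted exact p = 0.0130 for both). The smallest unadjusted p that 8 mice allow in this test is 0.00781, and the complete order was the same in 6 of 8 mice. TPM rests on the summed exon length of each gene, from 2797 bases for Slc32a1 to 7748 bases for Abat, and a gene whose main transcript uses few of its exons is set too low by it.

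**Figure D1:**
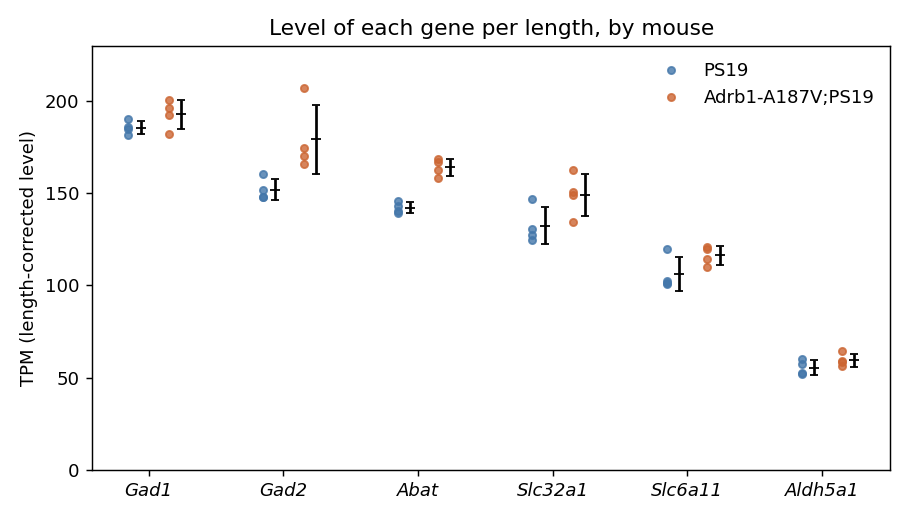
TPM of the 6 genes in each mouse, with PS19 mice in blue, mutant (Adrb1-A187V;PS19) mice in orange and black bars giving the mean ± SD of 4 mice. The order runs from Gad1, at means of 185.7 and 193.0 TPM, down to Aldh5a1, at 55.4 and 59.4 TPM, and 1 mutant mouse stands above the rest for Gad2.

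Genotypes were then set side by side on library-normalized counts, starting with synthesis. Gad1 was counted at 393.8, 395.1, 398.8 and 381.8 CPM in PS19 mice m677, m668, m665 and m659, and at 414.4, 385.9, 409.2 and 425.3 CPM in mutant mice m671, m661, m660 and m658. Mutant mice m671, m660 and m658 lay above every PS19 mouse and m661 lay among them, so the genotypes overlapped. The log2 fold change, mutant vs. PS19, was 0.06 (SE 0.05), and the means were 392.4 ± 7.36 and 408.7 ± 16.6 CPM.

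Gad2 encodes the decarboxylase that is concentrated at nerve terminals. Its level was 247.7, 263.5, 238.5 and 239.1 CPM in the 4 PS19 mice and 282.0, 270.3, 279.6 and 337.1 CPM in the 4 mutant mice, in the same order of mice. Every mutant mouse was above every PS19 mouse, with m661 closest to the PS19 range and m658 well above the other mutant mice. The means were 247.2 ± 11.6 and 292.2 ± 30.3 CPM, a level 18.2% higher in mutant mice and a log2 fold change of 0.24 (SE 0.07). Without m658 the log2 fold change was 0.17, and without m661 it was 0.28.

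Slc32a1, the gene of the vesicular GABA transporter, had 101.4, 114.9, 95.8 and 97.8 CPM in PS19 mice and 128.2, 104.4, 115.1 and 115.4 CPM in mutant mice. It came close to separating, since m671, m660 and m658 were above all PS19 mice, while mutant mouse m661 lay below PS19 mouse m668. The means were 102.5 ± 8.62 and 115.8 ± 9.73 CPM, with a log2 fold change of 0.18 (SE 0.07).

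Abat, which carries out the first step of GABA breakdown, had 299.8, 315.8, 298.2 and 304.7 CPM in PS19 mice and 355.2, 339.7, 353.0 and 361.7 CPM in mutant mice. The genotypes did not overlap, and the gap between the highest PS19 mouse, m668, and the lowest mutant mouse, m661, was wider than the gap for Gad2. The means were 304.6 ± 7.94 and 352.4 ± 9.26 CPM, 15.7% higher in mutant mice, with a log2 fold change of 0.21 (SE 0.04). Abat was also among the steadier of the 6 genes within a genotype, with a coefficient of variation of 2.61% in PS19 mice and 2.63% in mutant mice. The median gene with at least 50 CPM varied by 5.44% and 5.21%. A small spread within genotypes favours the lack of overlap on which Abat was chosen, so nothing is read from this contrast.

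Aldh5a1, the next enzyme of that pathway, had 89.96, 82.3, 93.1 and 80.4 CPM in PS19 mice and 92.8, 100.4, 90.6 and 87.95 CPM in mutant mice. The genotypes overlapped widely, and m661 alone was above all PS19 mice. The log2 fold change was 0.10 (SE 0.06), between means of 86.5 ± 6.06 and 92.95 ± 5.37 CPM, and it was 0.06 without m661. Opposite-strand genes overlap Aldh5a1, and since no strand setting of the counting was given, their reads may be mixed with its own: 9330162012Rik held 30 to 80 reads per library, 3.07% of the Aldh5a1 total, and 4932702P03Rik 18 to 36 reads, 1.69%.

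Slc6a11, the astrocytic uptake transporter, had 142.2, 144.3, 139.5 and 166.3 CPM in PS19 mice and 156.9, 167.7, 166.5 and 159.8 CPM in mutant mice. PS19 mice m677, m668 and m665 were below all mutant mice, and m659 lay inside the mutant range. The means were 148.1 ± 12.3 and 162.7 ± 5.24 CPM, with a log2 fold change of 0.14 (SE 0.06), and the value was 0.20 without m659.

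**Figure D2:**
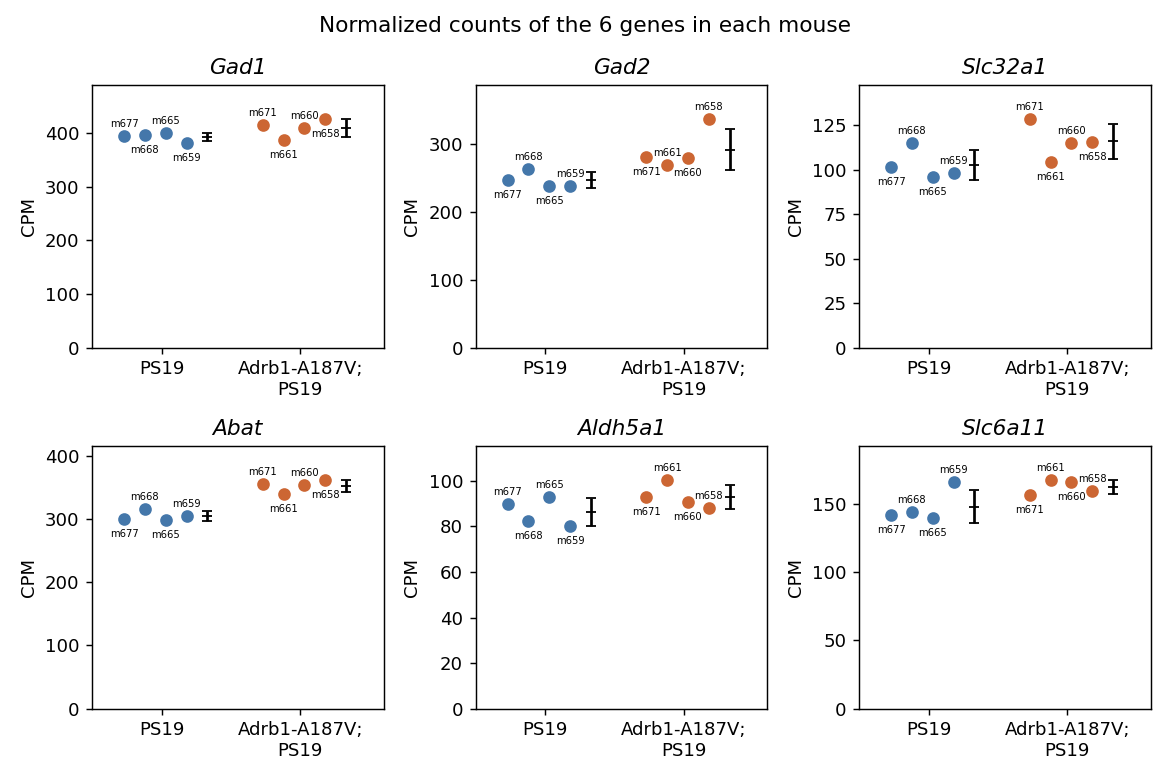
Normalized counts (CPM) of the 6 genes in each mouse, PS19 in blue and mutant (Adrb1-A187V;PS19) in orange, with black bars giving the mean ± SD of 4 mice and axes starting at 0. Gad2 (238.5 to 263.5 vs. 270.3 to 337.1 CPM) and Abat (298.2 to 315.8 vs. 339.7 to 361.7 CPM) did not overlap, and the other 4 genes did.

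Thus 2 of the 6 genes were higher in mutant mice without overlap. Over all genes tested, 176 of 17195 (1.02%) were higher in mutant mice without overlap, but since this pattern was the reason the genes were chosen, nothing is read from the contrast between these shares. All 6 log2 fold changes were above 0, as were 50.2% of those over all genes. No gene passed an adjusted p of 0.05 between the genotypes in the edgeR quasi-likelihood test, adjusted by the Benjamini-Hochberg method (smallest adjusted p = 0.9996). At an unadjusted p under 0.05, 245 genes (1.42%) were higher and 236 (1.37%) lower in mutant mice. DESeq2 also called none after adjustment, with a smallest adjusted p of 0.110, and 555 of the 33611 genes it tested were at an unadjusted p under 0.05. None was called by limma-voom either, with 492 of 17195 genes at that level.

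Genes that work together were also set against each other as ratios within a mouse, as a description and with no test. Expressed per Gad1 transcript, Gad2 was at 0.777 to 0.867 in PS19 mice and 0.885 to 1.03 in mutant mice, as a ratio of TPM. Abat per Gad1 was at 0.737 to 0.788 and 0.839 to 0.868. Neither ratio overlapped between the genotypes, and both contain a gene that was chosen for its own difference. Slc32a1 per Gad1 ranged from 0.656 to 0.794 and from 0.739 to 0.845, and the ratio of the breakdown enzymes, Abat per Aldh5a1, from 2.33 to 2.79 and from 2.46 to 3.0. Both of these overlapped.

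Markers of neighbouring regions were measured in the same libraries. All 14 genes of a striatal projection neuron list (such as Drd1, Drd2 and Ppp1r1b) had a log2 fold change above 0, with a median of 0.31, and 2 passed an unadjusted p of 0.05. Their summed level was 1393 to 2664 CPM in PS19 mice and 1502 to 2939 CPM in mutant mice, so the ranges overlapped. All 9 genes of a basal forebrain cholinergic list (such as Chat and Slc5a7) had a log2 fold change above 0 too, with a median of 0.69. Of these, 8 passed an unadjusted p of 0.05, and the summed level was 36.1 to 59.6 CPM in PS19 mice and 57.6 to 88.8 CPM in mutant mice. The score of this list did not overlap between the genotypes, at -0.81 to -0.01 in PS19 mice and 0.17 to 0.68 in mutant mice. Over all genes tested, 50.2% had a log2 fold change above 0 and 1.42% passed as higher. The marker lists were chosen with earlier results of these data known, so their counts are given as a description. No gene of either list was at 0 in any library.

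Cortical interneuron markers did not share this direction. Of 16 genes (such as Pvalb, Sst, Lamp5 and Cck), 6 had a log2 fold change above 0 and the median was -0.08. None passed an unadjusted p of 0.05 as higher and 3 passed as lower, where 1.42% and 1.37% of all genes did. The summed level was 1235 to 1334 CPM in PS19 mice and 1137 to 1244 CPM in mutant mice. Cortical excitatory markers (such as Slc17a7, Bcl11b and Foxp1) had a median of -0.13, with 4 of 11 above 0, 1 passing as higher and 3 as lower. Whether the listed genes are made only by the named cell type was not tested. For astrocytes, the main site of Slc6a11, 9 of 12 genes were above 0 with a median of 0.04, and 1 passed as higher. Of the oligodendrocyte, microglial, endothelial and meningeal genes, 2 of 7, 5 of 7, 3 of 6 and 3 of 6 were above 0, and none passed in either direction. The part of the basal forebrain markers in the genotype values of the 6 genes was not tested.

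With the striatal score (the mean over the list of each gene's centred log2 CPM) as a covariate in edgeR, the log2 fold change was 0.20 (SE 0.07) for Gad2 and 0.19 (SE 0.05) for Abat. Without the covariate these were 0.24 and 0.21. For Slc32a1 the value went from 0.18 to 0.11 (SE 0.06) with it, and for Gad1 from 0.06 to 0.03 (SE 0.05). Each of these genes was thus lower with the covariate. Aldh5a1 was at 0.13 (SE 0.07) and Slc6a11 at 0.17 (SE 0.06), both above their values without the covariate.

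**Figure D3:**
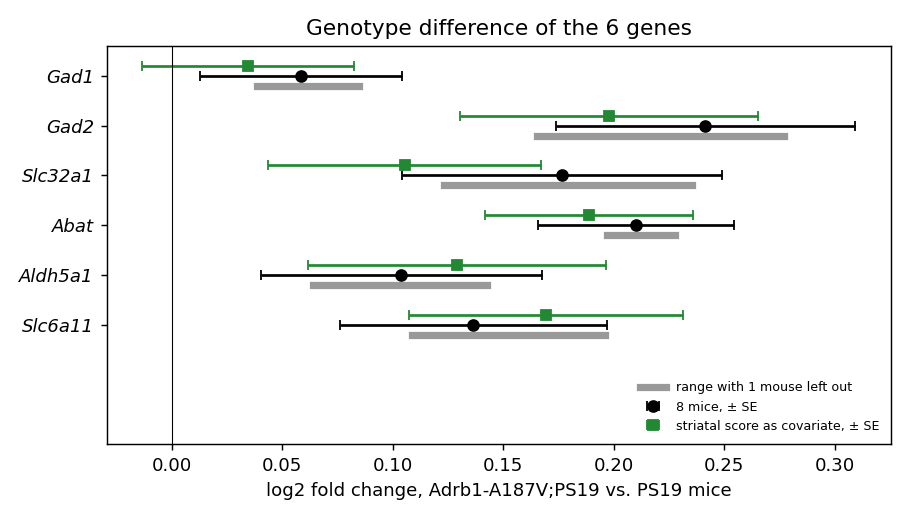
log2 fold change of the 6 genes, mutant (Adrb1-A187V;PS19) vs. PS19 mice, from edgeR with all 8 mice (black, ± SE), with the striatal score as covariate (green, ± SE) and as a range with each mouse left out in turn (grey). Abat had the narrowest range, 0.20 to 0.23, and Slc32a1 went from 0.18 to 0.11 with the covariate.

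How the genes varied among mice of the same genotype was asked after removing each genotype's mean from log2 CPM. Centring takes out the difference in means between the genotypes. The spread within a genotype, on which a lack of overlap also depends, stays in. Of 15 pairs, 6 correlated positively, and these were the pairs among the 4 genes Gad1, Gad2, Slc32a1 and Abat. Each of the 9 pairs with Aldh5a1 or Slc6a11 had a negative r. In all, 4 pairs passed an unadjusted p of 0.05 for Pearson's r in a 2-sided exact permutation of mice within genotype, and none after adjustment over the 15 pairs.

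Abat and Aldh5a1, consecutive enzymes, varied in opposite directions over the 8 mice (r = -0.83, exact permutation p = 0.0226, adjusted 0.169). Spearman's rho was -0.71 (exact permutation p = 0.0833), and r was -0.78 without m661 and m668, the mice farthest from the median of Abat. Abat and Slc32a1 varied together (r = 0.79, exact permutation p = 0.0434, adjusted 0.182), with a rho of 0.95 (exact permutation p = 0.0156) and an r of 0.47 without m661 and m668. Abat and Gad2 did as well (r = 0.76, exact permutation p = 0.0486, adjusted 0.182), with a rho of 0.74 (exact permutation p = 0.0503) and an r of 0.41 without m658 and m668. Both positive relations therefore weakened without those mice. Gad1 and Slc6a11 had an r of -0.63 (exact permutation p = 0.0191, adjusted 0.169), a rho of -0.67 (exact permutation p = 0.0486), and an r of -0.96 without m661 and m658. The decarboxylases Gad1 and Gad2 had an r of 0.70 and a rho of 0.64 (exact permutation p = 0.177 and 0.156, adjusted p above 0.05), and r was 0.14 without m661 and m658.

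**Figure D4:**
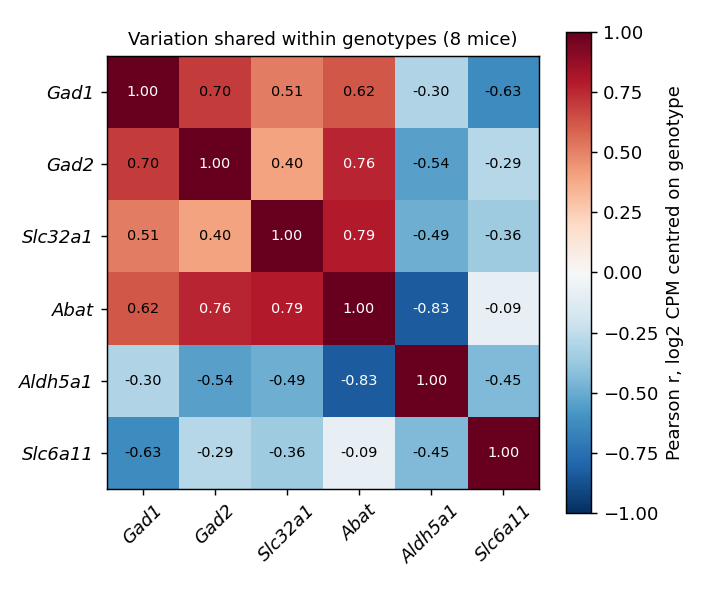
Pearson's r between the 6 genes over 8 mice, on log2 CPM with the genotype mean removed, from blue (-1) to red (1). The genes Gad1, Gad2, Slc32a1 and Abat form a block of positive values, from 0.40 to 0.79, while Aldh5a1 and Slc6a11 are negative against each of the others, down to -0.83.

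The same centred values were related to 5 marker scores, which gave 30 relations. For Pearson's r, 2 of them were at an unadjusted exact permutation p under 0.05 and none after adjustment (smallest adjusted exact p = 0.404). Slc32a1 followed the striatal score (r = 0.82, rho = 0.83, exact permutation p = 0.0295 and 0.0382), with an r of 0.45 without m668 and m671. Abat followed the basal forebrain score (r = 0.77, rho = 0.67, exact permutation p = 0.0260 and 0.111), and r stayed at 0.77 without m661 and m668. Aldh5a1 ran opposite to the basal forebrain score (r = -0.76, rho = -0.62, exact permutation p = 0.102 and 0.163). Against the striatal score, r was 0.78 for Abat (rho = 0.83, exact permutation p = 0.05035 and 0.0382), and 0.46 without m661 and m668. The r with this score was 0.71 for Gad1 and 0.52 for Gad2, and was negative for Slc6a11 (-0.51) and Aldh5a1 (-0.39). Gad2 ran opposite to the cortical excitatory score (r = -0.80, rho = -0.76, exact permutation p = 0.0677 and 0.0399), with an r of -0.79 without m658 and m668. Against the cortical interneuron score, r was 0.66 for Slc32a1, 0.59 for Abat, 0.38 for Gad1 and 0.01 for Gad2. Slc6a11 had an r of 0.46 with the astrocyte score.

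**Figure D5:**
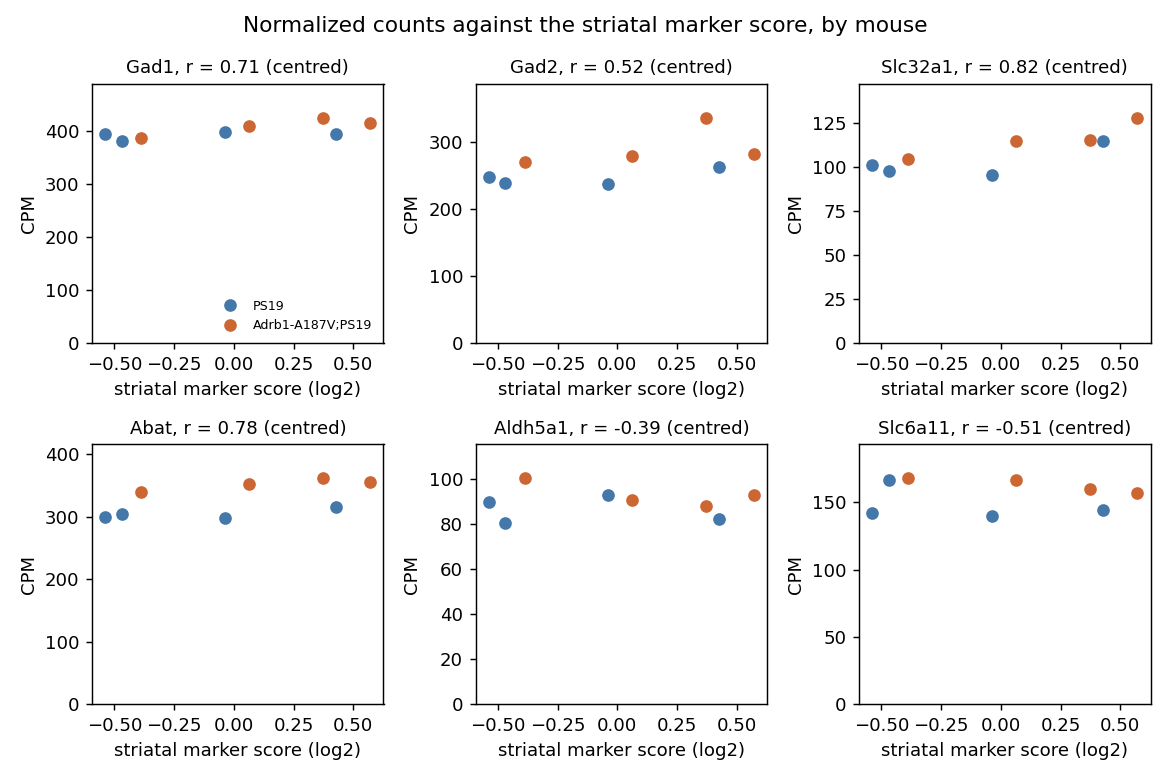
CPM of each of the 6 genes (y axis, from 0) against the striatal marker score of the same mouse (x axis, log2 units), PS19 in blue and mutant (Adrb1-A187V;PS19) in orange, with r after removal of the genotype means. Scores overlapped between genotypes (-0.54 to 0.43 vs. -0.39 to 0.57), and r ran from 0.82 for Slc32a1 to -0.51 for Slc6a11.

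For each of the 6 genes, the 3 most similar protein-coding genes were taken from 11659 with a mean of at least 5 CPM, by r over the 8 mice on the same centred values. With so many genes and 8 mice, values near 1 are found for any gene, and they are given as a description. The closest to Abat were Ace, encoding angiotensin-converting enzyme (0.99), Oprk1, the kappa opioid receptor (0.98), and Tacr1, the substance P receptor (0.98). Among the 6 genes themselves, Slc32a1 stood at rank 428 and Gad2 at rank 572 in likeness to Abat, and Aldh5a1 at rank 11397, near the far end. Slc32a1 was closest to Plekha3 (0.99), Lrrtm3, a synaptic adhesion gene (0.97), and Hey1, a Notch target (0.97), and Abat stood at rank 283.

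Gad1 was most like Tbc1d13 (0.98), Rps6ka5, a kinase gene (0.97), and Ctr9, of the PAF1 complex (0.97), with Gad2 at rank 441. Gad2 was most like Gm9833 (0.98), Eng, the endothelial receptor endoglin (0.98), and Mfhas1 (0.96), with Abat at rank 306 and Gad1 at rank 527. Aldh5a1 was most like Mal, a myelin gene (0.98), Guf1 (0.98) and Car7, a carbonic anhydrase (0.98). Slc6a11 was most like Usp19, a deubiquitinase (0.98), Atxn2 (0.95) and Pex13, a peroxisomal import gene (0.95).

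Beyond the 6 genes, 26 further genes of GABA supply, uptake, breakdown and reception were measured and tested. Of these, 18 had a log2 fold change above 0 (50.2% of all genes did), with a median of 0.02. At an unadjusted p of 0.05, 2 passed as higher and none as lower, where 1.42% and 1.37% of all genes passed, and 24 did not pass. The 2 that passed lost the call after adjustment (edgeR adjusted p = 0.9996 for both). They were Slc38a3, a glutamine transporter of astrocytes, at 70.0 ± 3.69 and 77.2 ± 3.79 CPM (log2 fold change 0.14, SE 0.06), and Maob, a monoamine oxidase that can feed GABA synthesis from putrescine, at 24.3 ± 1.73 and 27.8 ± 1.61 CPM (0.19, SE 0.08). Neither passed when PS19 mouse m668, or mutant mouse m661 or m658, was left out. The call of Slc38a3 was also lost without m677 or m660, and that of Maob without m659.

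By group, the 3 other plasma membrane transporters were above 0 without passing. Slc6a13, which encodes a GABA transporter found mainly in the meninges, was at 11.0 ± 2.92 CPM in PS19 mice and 12.5 ± 3.33 CPM in mutant mice (log2 fold change 0.19, SE 0.20), and it ranged from 0.06 to 0.33 with a mouse left out. With the striatal score as a covariate Slc6a13 was at 0.44 and passed the unadjusted threshold. Of the 8 genes of glutamine and glutamate supply, 4 were above 0 and 1, Slc38a3, passed. The glutamine synthetase gene Glul was at 1488 ± 24.1 and 1467 ± 33.9 CPM (-0.02, SE 0.04).

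The 3 genes of the putrescine route were above 0 and Maob passed. Of the 5 genes of the GABA-B receptor and its auxiliary subunits, 2 were above 0 and none passed, with Gabbr1 at 758.9 ± 33.7 and 764.0 ± 22.3 CPM (0.01, SE 0.05). The 3 genes that make or recycle pyridoxal phosphate, the cofactor of GAD and of GABA transaminase, had a median of 0.01, and the 2 genes for partners of the Gad2 protein 0.01. Neither group had a gene that passed, nor did Akr7a5, which reduces succinic semialdehyde (0.06), or the channel gene Best1 (0.17).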

How the data were processed

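Total RNA of mouse cortex was sequenced on an Illumina HiSeq 2500 as paired reads. Per the labels and the study's methods, the authors aligned reads with HISAT2 (2.0.5) to GRCm38/mm10 and counted them with featureCounts (1.5.0-p3); strand and multimapping settings were not given in the sources used here. The authors deposited whole-number counts per gene, with a gene length column of another kind (bases), which served for TPM.

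Counts were tested with edgeR 4.0.16 (TMM factors, default expression filter, glmQLFTest, 2-sided, Benjamini-Hochberg adjustment over all genes tested) without covariates. CPM use TMM library sizes, and log2 CPM a prior count of 2. DESeq2 1.42.0 and limma-voom 3.58.1 were alternatives, next to other size factors, filters, a striatal covariate and leaving out each mouse. The fit was also run on simulated counts with 2-fold changes, which are larger than the differences described for the 6 genes. Its outcome is not given here. The mice are separate animals, 4 per genotype, and each test takes the mouse as its unit. Depth sets a counting error of 1.19% to 2.50% for the 6 genes.

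The 6 genes, the wider list, the 9 marker lists and the tests were chosen with earlier results of these data known. Named were the 6 genes, 3 of 5 preset genes of the wider list (the others are not reported here) and those passing the unadjusted test, the 3 genes most like each member, and defining markers. Gene positions came from the count table's annotation and GENCODE, promoter windows from RefSeq (GRCm38.p6).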

Additional observations from a re-analysis of the deposited data

How the results depend on the processing

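The log2 fold changes of the 6 genes stayed above 0 in each alternative run. Other tests, size factors and filters moved them by at most 0.01. With each mouse left out they ranged from 0.04 to 0.09 for Gad1, 0.17 to 0.28 for Gad2, 0.20 to 0.23 for Abat, 0.06 to 0.14 for Aldh5a1, 0.11 to 0.20 for Slc6a11 and 0.12 to 0.24 for Slc32a1. The number of genes at an unadjusted p under 0.05 was 481, and 1366 with no filter beyond 1 count, where more genes were tested. In the wider list 2 genes passed, and 0 to 3 with a mouse left out (0 without m668 or m658, 1 without m659, m661 or m660). Without m661 the gene that passed was Aldh1a1, named here after its values were seen, and neither Slc38a3 nor Maob. The count was 3 with the striatal covariate, where Slc6a13 went from 0.19 to 0.44. Gabbr1 ranged from -0.019 to 0.027 with a mouse left out, and was at -0.019 with the striatal covariate. Without removal of the genotype means, 1 of the 15 pairs passed adjustment (Gad2 and Abat, r = 0.88) and 1 of the 30 marker relations (Abat and the basal forebrain score, r = 0.91), and both hold the contrast on which the genes were chosen. In that form r was 0.018 for Gad1 and Slc6a11 and 0.32 for Abat and Aldh5a1, opposite in sign to the centred values. No pair or marker relation passed adjustment with a mouse left out, and all 5 neighbours in the order of levels kept their call. No paired analysis was possible because litters are not marked in the labels, although the study's methods name littermates as controls, and the mouse numbers are not shared between genotypes. With 4 mice per genotype, the SE of the log2 fold change was 0.04 to 0.07 for the 6 genes. Since genes were chosen on this contrast, no call is made from these values.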

Other observations

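The mouse farthest from its own genotype was m658 for Gad2 and m659 for Slc6a11, where the gap to the nearest mouse was 0.824 and 0.821 of the whole range of the 4 mice. Of the 12 sets of 4 values, none passed Dixon's 95% limit. For Gad2, m658 had 207.0 TPM against 165.9 to 174.4 TPM in the other mutant mice, while for Abat the same mouse had 168.4 TPM against 158.2 to 167.0 TPM.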
